A study of Mus musculus with 4 samples.

Results

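The genes described here are 9 of the 32285 measured in T cells of mouse tumors, and they were chosen by name: Il18r1, Il18rap, Rora, Tmem176a, Tmem176b, Il17a, Il23r, Ccr6 and Maf. They are genes of type 17 T cells and of T cells that carry the IL-18 receptor. All 9 were read in every library, in cells called Cd4, Cd8 or Foxp3 from their own RNA, and control tumors were compared with tumors in which B7-H3 had been knocked down.

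The cells were live CD3+ T cells sorted from subcutaneous tumors of wild-type C57BL/6J mice, males injected at 6 weeks of age. The injected tumor cells were 105K, a renal line of mouse origin without Tsc2, so that both groups shared the loss of Tsc2. The control tumors (sh-NC) carried a non-targeting hairpin and the knockdown tumors (sh-B7-H3 (1)) one directed at Cd276, which encodes the checkpoint ligand B7-H3. Each line was a puromycin-selected pool of cells and not a clone. For each group 80 tumors were pooled, and RNA and antibody tags of the same cells were counted in 2 droplet libraries (CITE-seq). The labels describe the libraries of a group as lanes of the pooled cells, whereas a figure legend of the study states that the tumors made 2 independent samples per group. Its methods speak of biological replicates, but also of pooling the tumors of a group together before the sort. Read as independent samples, the libraries would give p-values that cover the spread between pools. Read as lanes, the p-values below measure the spread between these libraries, which may be technical, and say nothing of other mice. The knockdown was made in the tumor cells and the mice were wild type, so the 9 to 11 Cd276 UMIs per library over all called cells cannot check the labels. Each pair of libraries shared 17 to 35 barcodes of called cells.

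A UMI (unique molecular identifier) stands for 1 counted RNA molecule. The libraries held 7030 to 12112 called cells and 79224898 to 132820909 RNA UMIs, of which 2961 to 6215 cells (41.9 to 51.3%) were kept. A Cd4 cell had at least 1 Cd4 UMI and no UMI of Cd8a, Cd8b1 or Foxp3, a Cd8 cell at least 2 UMIs of Cd8a plus Cd8b1 and none of Cd4 or Foxp3, and a Foxp3 cell at least 1 Foxp3 UMI and none of Cd8a or Cd8b1. There were 637 to 1548 Cd4, 1173 to 2524 Cd8 and 163 to 309 Foxp3 cells per library. Their median depth was lower in the knockdown libraries, for Cd8 cells 6766 and 6905 UMIs against 8676 and 8994. All 4 T cell markers (Cd3e, Cd3d, Cd3g, Trac) were detected in every class. Cd4 RNA itself was higher in the Cd4 cells of the knockdown libraries, 501 and 480 against 246 and 242 CPM (UMIs per 1000000 RNA UMIs), so the call did not pick cells of equal Cd4 RNA. Whether handling differed between the groups is not given, and the knockdown and any such difference cannot be told apart.

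IL-18 signals through a receptor of 2 chains, of which Il18r1 encodes the chain that binds IL-18 and Il18rap the accessory chain that completes the signal. Type 17 T cells carry the nuclear receptor RORα (Rora), grow on IL-23 through Il23r, secrete IL-17A (Il17a) and home by the chemokine receptor Ccr6. The transcription factor c-Maf (Maf) acts in type 17 cells and also in regulatory and IL-10-producing T cells. Tmem176a and Tmem176b encode paired membrane channel proteins of intracellular vesicles, known in type 17 lymphocytes and in dendritic cells and macrophages. In tumors, IL-18 is known for raising interferon production by T cells that carry its receptor, and regulatory T cells of tissues commonly carry Rora, Maf and Ccr6.

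The type 17 name was not borne out by its defining genes. Il17a had 0 UMIs in Cd4 cells of all 4 libraries, which allows a share of cells with a UMI of up to 0.194, 0.238, 0.478 and 0.374% after thinning. In Foxp3 cells it had 3 UMIs in the 4 libraries together, and in Cd8 cells 1 UMI in all. Il23r had 1 and 1 UMIs in Cd4 cells of the control libraries and none in those of the knockdown libraries. Of genes outside the 9, Il22 and Ccl20 were at 0 in all 3 classes and Il17f reached at most 2 UMIs. Il17a and Il23r stayed under the filter on low counts in every comparison and were not tested. The 7 genes that could be followed are named below as they are, without the type 17 name.

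Both receptor chains and both Tmem176 genes lie as neighbors in the genome (GRCm38, GENCODE annotation). Il18r1 (chr1:40465552-40500854) and Il18rap (chr1:40515362-40551705) follow each other on the plus strand with 14507 bases between them. Tmem176a (chr6:48840919-48847071, plus strand) and Tmem176b (chr6:48833818-48841496, minus strand) start head to head and share 578 bases, 81 of them exonic in both. Whether the counting used strand is not given in the sources used here, so a read from the shared exonic bases may have been counted for either gene. These bases lie near the starts of both genes, whereas the study used a library kit that reads transcripts at the opposite end. Rora (chr9:68653786-69388246), Ccr6 (chr17:8236043-8257141), Maf (chr8:115682942-115707794), Il17a (chr1:20730905-20734496) and Il23r (chr6:67422932-67491855) lie apart from each other.

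The start regions of the Tmem176 genes are shown because some of their windows overlap, and those of Il17a, Il23r and Ccr6 because they held both motifs that were searched. Each window runs from 250 bases before to 50 after a RefSeq transcript start (GRCm38.p6) and is written 5′ to 3′ on the strand of its gene. A window was found for 8 of the 9 genes, and Maf had none. Tmem176a had windows 1 and 2 and Tmem176b windows 1 to 3, whose pairs shared 155, 208, 6, 0, 219 and 0 bases, and 1 pair is shown. Tmem176a (chr6:48841233-48841532, plus) and Tmem176b (chr6:48841325-48841624, minus) shared 208 bases, which are in capitals and are the reverse complement of each other.
Tmem176a: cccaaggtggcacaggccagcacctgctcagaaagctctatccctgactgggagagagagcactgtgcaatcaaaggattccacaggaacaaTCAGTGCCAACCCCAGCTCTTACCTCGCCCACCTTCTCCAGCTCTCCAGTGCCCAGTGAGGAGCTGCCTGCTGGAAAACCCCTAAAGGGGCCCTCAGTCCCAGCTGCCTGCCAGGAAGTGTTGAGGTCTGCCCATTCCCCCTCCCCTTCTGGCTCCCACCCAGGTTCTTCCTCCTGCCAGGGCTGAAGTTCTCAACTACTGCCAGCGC
Tmem176b: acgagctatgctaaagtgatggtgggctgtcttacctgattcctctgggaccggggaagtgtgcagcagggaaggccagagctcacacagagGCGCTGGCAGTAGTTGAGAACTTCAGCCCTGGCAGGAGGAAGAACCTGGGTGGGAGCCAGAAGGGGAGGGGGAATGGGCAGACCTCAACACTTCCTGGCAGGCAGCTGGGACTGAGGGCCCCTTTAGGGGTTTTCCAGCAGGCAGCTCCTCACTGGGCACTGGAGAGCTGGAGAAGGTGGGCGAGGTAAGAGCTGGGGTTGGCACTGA

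The motifs were AGGTCA, the core read by ROR nuclear receptors among others, and TGCTGAC, a core of Maf recognition elements, each on both strands. Of 32851 windows of all genes 16.3% held the former, 4.67% the latter and 1.24% both. Of the 14 windows of these genes 3 held both, and the other 11 held neither. Capitals mark the matches, which overlap each other in the Il17a window (chr1:20730655-20730954, plus). The Il23r window (chr6:67491806-67492105, minus) held 2 matches of AGGTCA and 1 of TGCTGAC, and the Ccr6 window (chr17:8235793-8236092, plus) 1 of each.
Il17a: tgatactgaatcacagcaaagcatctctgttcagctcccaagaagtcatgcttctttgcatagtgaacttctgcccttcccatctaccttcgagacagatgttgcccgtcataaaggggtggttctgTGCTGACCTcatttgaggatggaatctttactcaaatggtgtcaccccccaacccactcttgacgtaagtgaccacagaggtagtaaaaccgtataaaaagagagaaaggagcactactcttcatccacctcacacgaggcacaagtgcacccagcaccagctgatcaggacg
Il23r: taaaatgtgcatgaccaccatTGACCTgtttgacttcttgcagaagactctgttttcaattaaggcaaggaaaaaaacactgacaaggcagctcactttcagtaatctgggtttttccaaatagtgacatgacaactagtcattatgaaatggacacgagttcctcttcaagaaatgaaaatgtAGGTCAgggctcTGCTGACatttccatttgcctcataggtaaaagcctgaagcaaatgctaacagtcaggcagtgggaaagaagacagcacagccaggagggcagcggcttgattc
Ccr6: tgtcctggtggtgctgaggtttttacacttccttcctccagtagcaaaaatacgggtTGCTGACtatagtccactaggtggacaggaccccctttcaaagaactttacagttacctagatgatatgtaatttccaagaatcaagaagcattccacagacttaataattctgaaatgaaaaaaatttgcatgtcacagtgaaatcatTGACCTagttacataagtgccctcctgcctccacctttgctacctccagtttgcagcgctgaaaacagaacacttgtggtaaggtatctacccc

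These are letter matches and not bound sites. The 3 genes with both motifs were those with the fewest UMIs in Cd4 cells, and the windows of Rora, Il18r1 and Il18rap held neither motif.

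**Figure D1:**
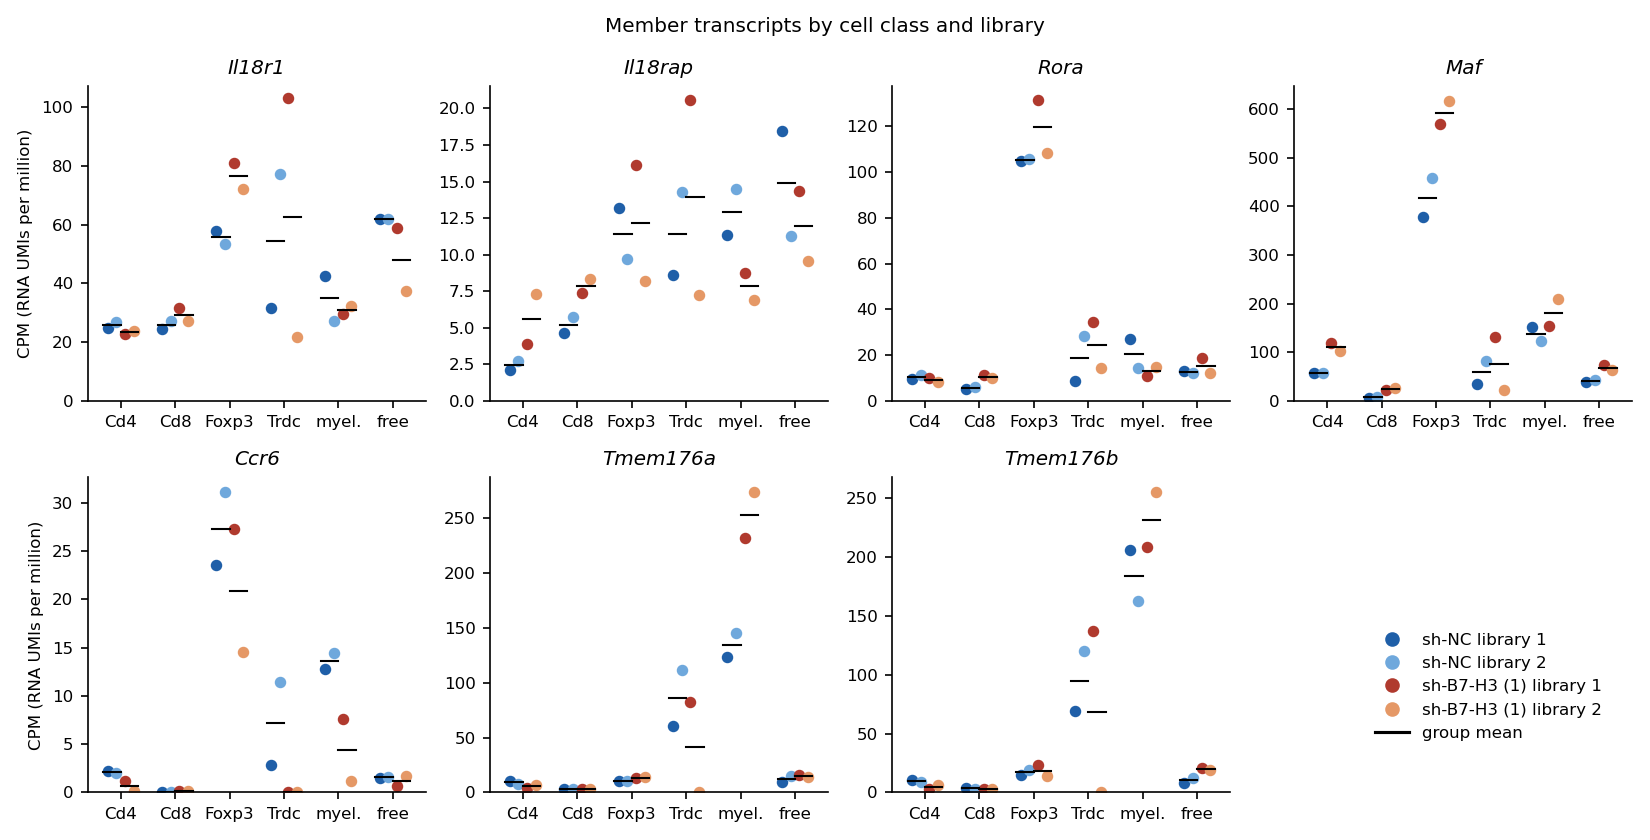
Levels of the 7 followed genes (y axes, CPM, linear from 0) in Cd4, Cd8 and Foxp3 cells, in Trdc cells, in cells with myeloid UMIs (myel.) and in droplets without cells (free), with 1 point per library and a line at each group mean (n = 2 libraries). Maf, Rora and Ccr6 were highest in Foxp3 cells among the T cell classes, and Tmem176a and Tmem176b in cells with myeloid UMIs.

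Of the receptor pair, Il18r1 was read at 24.9 and 26.7 CPM in Cd4 cells of the control libraries and at 22.9 and 23.7 CPM in those of the knockdown libraries. In Cd8 cells it was read at 24.4 and 27.1 CPM in the control and at 31.5 and 27.2 CPM in the knockdown libraries. In Foxp3 cells it reached 57.9 and 53.4 CPM in the control and 80.8 and 71.9 CPM in the knockdown libraries. Foxp3 cells stood above Cd4 and Cd8 cells in each of the 4 libraries, and Cd4 and Cd8 cells lay close together. Il18rap, the accessory chain, was read at 2.13 and 2.76 CPM in Cd4 cells of the control libraries and at 3.89 and 7.31 CPM in those of the knockdown libraries. In Cd8 cells it was read at 4.63 and 5.71 CPM and at 7.40 and 8.31 CPM in the same order. In Foxp3 cells the groups overlapped, with 13.2 and 9.71 against 16.2 and 8.20 CPM. Il18rap counts in Cd4 cells were small, 17 to 42 UMIs per library.

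Rora, which encodes the nuclear receptor RORα, was read at 9.52 and 11.4 CPM in control Cd4 cells and at 9.85 and 8.35 CPM in knockdown Cd4 cells, and the groups overlapped. In Cd8 cells it was read at 5.33 and 6.28 CPM in the control and at 11.2 and 9.90 CPM in the knockdown libraries. In Foxp3 cells it was read at 105 and 106 CPM in the control and at 131 and 108 CPM in the knockdown libraries. Rora was thus several times higher in Foxp3 cells than in the others in every library. Maf was read at 57.0 and 57.6 CPM in control Cd4 cells and at 118 and 102 CPM in knockdown Cd4 cells. In Cd8 cells it was read at 6.08 and 8.18 CPM in the control and at 22.4 and 27.3 CPM in the knockdown libraries. In Foxp3 cells it was read at 377 and 458 CPM in the control and at 568 and 616 CPM in the knockdown libraries. Both knockdown libraries stood above both control libraries in all 3 classes for Maf.

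Ccr6, the receptor of the chemokine CCL20, was highest in Foxp3 cells, at 23.5 and 31.1 CPM in the control and 27.3 and 14.6 CPM in the knockdown libraries. In Cd4 cells it had 27 and 21 UMIs in the control against 5 and 1 in the knockdown libraries, or 2.22 and 2.00 against 1.15 and 0.174 CPM. In Cd8 cells it had at most 2 UMIs per library. An antibody tag against the CCR6 protein gave 917 and 848 UMIs per 1000000 tag UMIs in Cd4 cells of the control libraries and 816 and 814 in those of the knockdown libraries, 803 and 734 against 801 and 790 in Cd8 cells, and 904 and 697 against 804 and 836 in Foxp3 cells. The tag therefore did not follow the RNA across the classes. The mean of 9 isotype control tags, which bind no mouse antigen, was 325 to 336 in control and 428 to 443 in knockdown Cd4 cells. With TMM scaling the CCR6 tag was called lower in Cd4 cells, at -0.41 on the log2 scale (SE 0.04, adjusted p = 0.00336 by edgeR), where 56.9% of the 197 tags were called. In Cd8 cells the TMM-scaled value was -0.38 (63.5% of tags called) and in Foxp3 cells -0.28 (37.1%), although in both the shares of tag UMIs overlapped, so that the direction rested on the scaling, and no direction is drawn from the tag.

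Tmem176a was read at 10.3 and 7.90 CPM in Cd4 cells of the control libraries and at 4.12 and 6.96 CPM in those of the knockdown libraries. Tmem176b was read at 10.2 and 9.13 CPM and at 3.21 and 5.92 CPM in the same order. Control libraries were the higher ones for both genes. In Cd8 cells Tmem176a lay between 2.74 and 3.47 CPM and Tmem176b between 2.62 and 4.14 CPM over the 4 libraries. In Foxp3 cells they lay between 10.2 and 13.7 CPM and between 13.7 and 23.2 CPM. These levels were low against those in cells with myeloid UMIs, which are described further on.

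Foxp3 cells were then compared with Cd4 cells within libraries. Of the 7 genes tested against Cd4 cells, 6 were higher in Foxp3 cells by edgeR's quasi-likelihood test with Benjamini-Hochberg adjustment over all genes, where 28.8% of all 11600 genes tested were called and 14.8% were higher. With an absolute log2 difference of at least 1 also asked for, 5 of the 7 and 10.2% of all genes were called. The median log2 difference of the 7 was 1.50, against -0.03 over all genes. Ccr6 was higher by 3.76 on the log2 scale (SE 0.35, adjusted p = 1.35e-06), Rora by 3.24 (SE 0.16, adjusted p = 2.97e-09) and Maf by 2.45 (SE 0.17, adjusted p = 5.34e-08). Il18rap was higher by 1.50 (SE 0.30) and Il18r1 by 1.14 (SE 0.13). Tmem176b was higher by 0.95 (SE 0.26, adjusted p = 0.0141), a call that was lost without control library 2 (1.07, adjusted p = 0.0520). Once cells with the myeloid UMIs described further on were set apart, Foxp3 cells held 11 and 34 Tmem176b UMIs in the control libraries. In the knockdown libraries they held 21 and 6, and the comparison was not fitted without the cells so set apart. Tmem176a differed by 0.35 (SE 0.25, adjusted p = 0.327) and was not called.

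In Cd8 against Cd4 cells 5 of the 7 genes were called, 1 higher and 4 lower, where 17.8% of all genes were, 9.43% higher and 8.33% lower. With a log2 difference of at least 1 it was 4 of the 7 and 4.8% of all genes. Ccr6, 1 of the 4 lower genes, had 0, 1, 1 and 2 UMIs in Cd8 cells and passed the filter only through the other classes, so its fitted value and call are not read. Maf was at -2.38 on the log2 scale (SE 0.18, adjusted p = 4.87e-07). Tmem176a was at -1.18 (SE 0.20) and Tmem176b at -1.05 (SE 0.23). Il18rap alone was higher in Cd8 cells, by 0.93 (SE 0.22, adjusted p = 0.00906). Without control library 2 the calls of Il18rap (0.83, adjusted p = 0.0952) and Tmem176b (-0.89, adjusted p = 0.0881) were lost. Il18r1 (0.28, adjusted p = 0.0956) and Rora (-0.26, adjusted p = 0.350) did not pass. The order of the classes was therefore Foxp3, Cd4, Cd8 for Maf, while Cd4 and Cd8 cells could not be separated for Il18r1 and Rora.

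**Figure D2:**
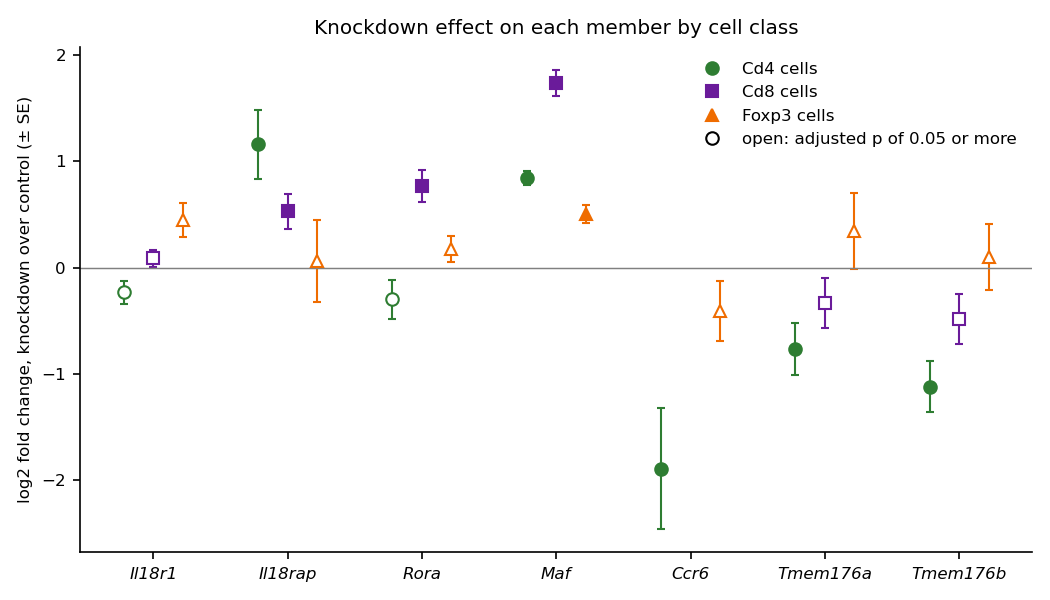
Log2 fold change of the 7 followed genes, knockdown over control, in Cd4, Cd8 and Foxp3 cells (y axis, log2 scale), with bars of 1 standard error and filled symbols where the adjusted p was under 0.05 (n = 2 libraries per group). Maf lay above 0 in all 3 classes, and Ccr6 in Cd8 cells was not tested. Ccr6 in Cd4 cells passed the filter on low counts only through the control libraries.

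In Cd4 cells the knockdown libraries held more Maf and Il18rap and less Tmem176a and Tmem176b RNA. Of the 7 genes tested 5 were called, 2 higher and 3 lower, by edgeR's test, where 40% of all 10895 genes were called, 20.5% higher and 19.5% lower, so a called gene was no rarity. With a log2 fold change of at least 1 it was 3 of the 7 and 10.9% of all genes. The median of the 7 was -0.30 on the log2 scale, against 0.00 over all genes. Maf was higher by 0.84 (SE 0.07, adjusted p = 1.18e-08) and Il18rap by 1.16 (SE 0.32, adjusted p = 0.00784). Tmem176b was at -1.12 (SE 0.24, adjusted p = 0.00113) and Tmem176a at -0.77 (SE 0.24, adjusted p = 0.0177). Ccr6, the remaining called gene, passed the filter on low counts only through the control libraries, where it was the higher, so its UMIs given above stand as a description and nothing is read from its call. Whether the shares of Cd4 cells with a Tmem176a or Tmem176b UMI stood above those of reference cells could not be settled, as given further on. Il18r1 (-0.23, SE 0.11, adjusted p = 0.0983) and Rora (-0.30, SE 0.18, adjusted p = 0.211) did not pass.

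Of these calls Maf held under the 15 alternatives to the processing, but it lay under the limit of a log2 fold change of at least 1. The call of Il18rap was lost without knockdown library 2 (0.57, adjusted p = 0.346), with DESeq2's Wald test (1.13, adjusted p = 0.0930) and without cells holding at least 2 UMIs of the myeloid marker list (1.02, adjusted p = 0.0620). That of Tmem176a was lost under 8 of the 15, among them without control library 1 (-0.56, adjusted p = 0.114) or knockdown library 1 (-0.47, adjusted p = 0.163). The others were the Wald test, no doublet removal, no upper limit of genes, a mitochondrial limit of 10%, lineage by tags and the myeloid marker list, with values from -0.78 to -0.01. Tmem176b lost its call without doublet removal and at that mitochondrial limit (-0.54, adjusted p = 0.0696). The value of Tmem176b reached -1.69 without knockdown library 2. With a stricter RNA call Rora was called lower as well (-0.66, adjusted p = 0.0126). Without doublet removal Tmem176a stood at -0.01 and Tmem176b at -0.29, and neither was called.

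In Cd8 cells Maf, Rora and Il18rap were called higher in the knockdown libraries, and 5 alternatives removed the call of Il18rap. Maf and Rora both lay below their levels in droplets without cells of the same library, as given further on. Maf in those droplets was higher in the knockdown libraries too, and the part of free RNA was not tested. Of 6 genes tested 3 were called, all higher, where 44.1% of all 11557 genes were called 22.4% higher and 21.6% lower. With a log2 fold change of at least 1 it was 1 of the 6, Maf, and 9.42% of all genes. Maf was higher by 1.73 (SE 0.12, adjusted p = 7.93e-13), Rora by 0.77 (SE 0.15, adjusted p = 9.31e-05) and Il18rap by 0.53 (SE 0.16, adjusted p = 0.00866). The call of Il18rap was lost without control library 1 (0.39, adjusted p = 0.0860) or knockdown library 2 (0.43, adjusted p = 0.140), with DESeq2's Wald test (0.52, adjusted p = 0.148), with lineage by tags (0.43, adjusted p = 0.0619) and without cells holding at least 2 UMIs of the myeloid marker list (0.08, adjusted p = 0.814). Il18r1 was at 0.09 (SE 0.08, adjusted p = 0.386), Tmem176b at -0.49 (SE 0.23, adjusted p = 0.0947) and Tmem176a at -0.33 (SE 0.23, adjusted p = 0.264), none of them called. Without control library 2 Tmem176b was called (-0.68, adjusted p = 0.0393). The direction of both Tmem176 genes turned without doublet removal, to 0.64 for Tmem176a and 0.38 for Tmem176b. By edgeR Tmem176a was called higher there and with lineage by tags (adjusted p of at most 0.00891). Another 3 alternatives called it lower (-0.91 to -0.50, adjusted p of 0.0322 to 0.0481), so its calls went in opposite directions.

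In Foxp3 cells, which express the regulatory T cell factor Foxp3, only Maf of the 7 genes tested was called. It was higher by 0.50 (SE 0.08, adjusted p = 0.000204), where 5.2% of all 8468 genes were called and 2.67% were higher. With a log2 fold change of at least 1 none of the 7 and 0.968% of all genes were called. The call was lost without the filter on low counts (0.48, adjusted p = 0.0849) and without cells holding at least 2 UMIs of the myeloid marker list (0.63, adjusted p = 0.0730), though not without cells holding the defining myeloid UMIs. Il18r1 was at 0.45 (SE 0.16, adjusted p = 0.108) and Rora at 0.18 (SE 0.12, adjusted p = 0.526). Ccr6 was at -0.40 (SE 0.28, adjusted p = 0.517), and Il18rap, Tmem176a and Tmem176b lay between 0.06 and 0.34.

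The knockdown effect differed between Cd8 and Cd4 cells for Maf and Rora. The interaction term of edgeR's fit over the 12 sums was 0.89 for Maf (SE 0.14, adjusted p = 6.11e-05) and 1.06 for Rora (SE 0.23, adjusted p = 0.00289), with Maf higher in both classes and more so in Cd8 cells, and Rora called in Cd8 cells alone, at values of opposite sign. Of all genes 3.5% were called, 1.55% higher, and with a log2 difference of at least 1 it was Rora of the 7 and 1.02% of all genes. Without knockdown library 2 both calls were lost, at 0.62 (adjusted p = 0.0557) and 1.03 (adjusted p = 0.0587). Between Foxp3 and Cd4 cells 1 of 7 genes was called, Il18r1 at 0.70 (SE 0.19, adjusted p = 0.0181), where 6.48% of all genes were and 3.14% were higher, and none with a log2 difference of at least 1 (2.72% of all genes). This call was lost whichever library was left out: without control library 1 it was 0.81 (adjusted p = 0.0574), without control library 2 it was 0.58 (adjusted p = 0.234), without knockdown library 1 it was 0.58 (adjusted p = 0.244) and without knockdown library 2 it was 0.82 (adjusted p = 0.0535). The comparisons of the 3 classes with control share no cells, but they share libraries.

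**Figure D3:**
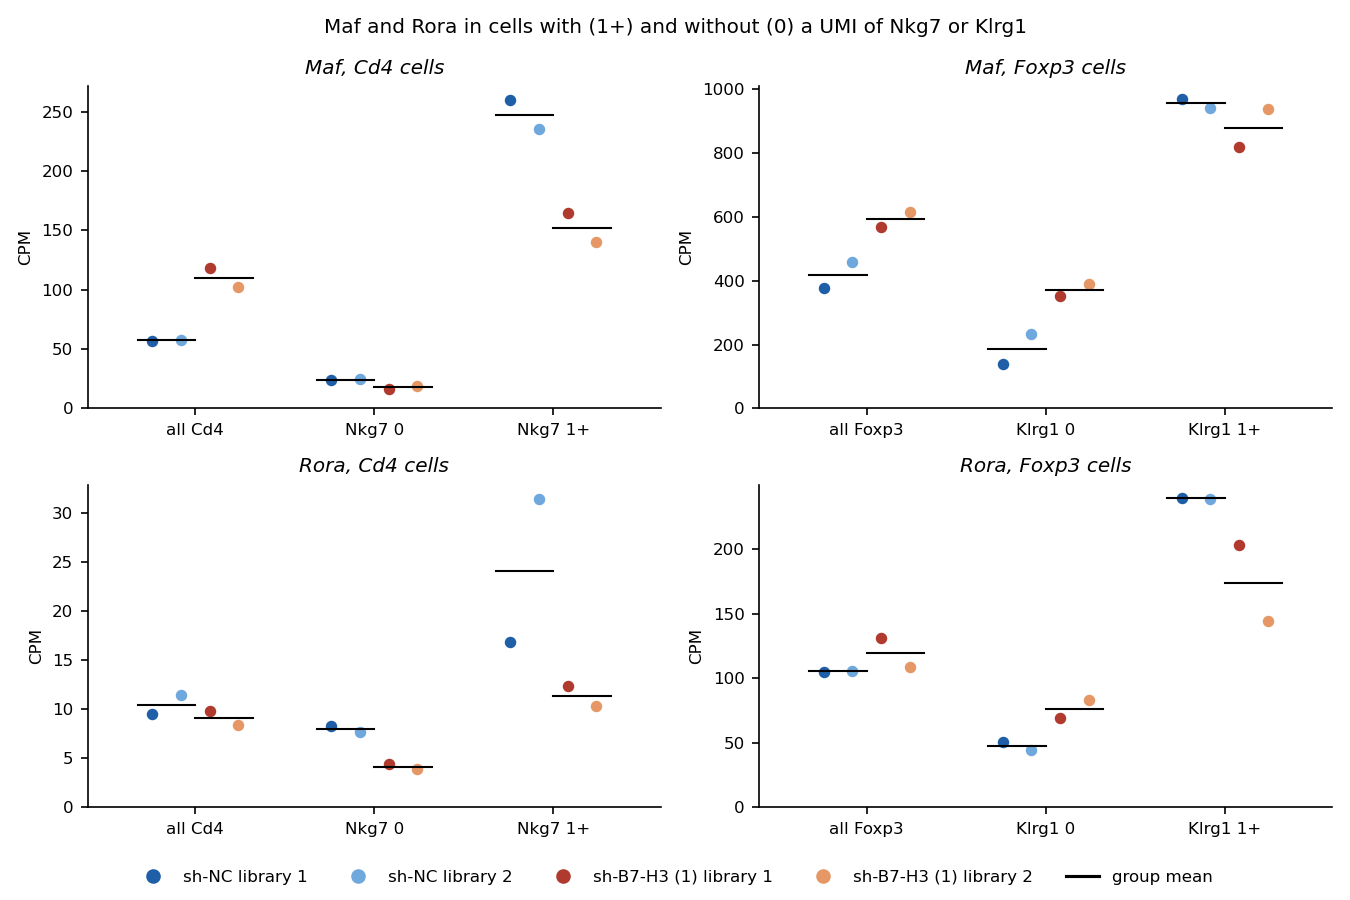
Maf (upper row) and Rora (lower row) in all Cd4 cells and in Cd4 cells without (0) or with (1+) a Nkg7 UMI, left, and in all Foxp3 cells and in Foxp3 cells without or with a Klrg1 UMI, right (y axes, CPM, linear from 0), with 1 point per library and a line at each group mean (n = 2). In all Cd4 cells Maf was higher in the knockdown libraries, while in Cd4 cells with a Nkg7 UMI it was lower there.

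The cells of a class were then split by a second transcript, to see in which cells these genes lay. Nkg7 encodes a protein of cytotoxic granules. In Cd4 cells with a Nkg7 UMI Maf was read at 260 and 235 CPM in the control and at 165 and 140 CPM in the knockdown libraries. In Cd4 cells without one it was read at 23.6 and 24.5 against 16.8 and 18.5 CPM. Knockdown libraries were thus lower in both subsets, although they were higher over all Cd4 cells. The cells with a Nkg7 UMI made up 15.6 and 17.2% of the class in control libraries but 69.2 and 69.1% in knockdown libraries, or 10.5 and 11.9 against 59.1 and 58.9% after thinning each cell to 2000 UMIs. Nkg7 in droplets without cells also differed, at 543 and 548 CPM in the control and 1299 and 1180 CPM in the knockdown libraries, and its part in the split was not tested.

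In Cd4 cells with a Nkg7 UMI Maf was at -0.67 in knockdown against control (SE 0.09, edgeR adjusted p = 0.00028) and Rora at -1.06 (SE 0.29, adjusted p = 0.0340). These were 2 of 6 genes tested, both lower, where 8.16% of all genes were called and 4.29% were lower. Maf kept its call without each library in turn (-0.76 to -0.57), while that of Rora was lost without control library 2 (-0.53, adjusted p = 0.416) or knockdown library 2 (-0.94, adjusted p = 0.0908). In Cd4 cells without a Nkg7 UMI none of 6 genes was called by edgeR, where 3.34% of all genes were, and 2 had an unadjusted p under 0.05, Rora, which was lower, and Ccr6, which passed the filter only through the control libraries and is not read. Maf was at -0.33 there (SE 0.20, adjusted p = 0.533). A split at 3 or more Nkg7 UMIs, added after the data were seen, gave 441 and 382 against 193 and 183 CPM of Maf in the upper cells and 27.8 and 26.3 against 32.1 and 19.7 CPM in the lower ones. The upper cells were at -1.03 for Maf (SE 0.09, adjusted p = 9.1e-09, with 4.78% of all genes called) and the lower ones at -0.03 (SE 0.16, adjusted p = 0.969, with 3.85%). The knockdown effect was not shown to differ between Cd4 cells with and without Nkg7, as 0 of 6 genes had a called interaction (2.88% of all genes) and none had an unadjusted p under 0.05.

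Within libraries, Cd4 cells with a Nkg7 UMI held more Maf, by 3.03 on the log2 scale (SE 0.10, adjusted p = 5.87e-13), and more Rora, by 1.27 (SE 0.23, adjusted p = 0.000248) than those without. With Il18rap these were 3 of 6 genes, where 41% of all genes were called and 21.3% were higher. Il18rap passed the filter only through the cells with a Nkg7 UMI, with 11, 10, 4 and 1 UMIs in the cells without one against 15, 19, 13 and 41, so no test of it is given. Il18r1 did not follow them, at 0.03 (SE 0.13, adjusted p = 0.877). In Cd8 cells, of which 93.9 to 96.9% had a Nkg7 UMI (after thinning 67.3 and 69.1% for control against 86.6 and 84.5% for knockdown tumors), those with one held more Il18r1, by 1.08 (SE 0.24, adjusted p = 0.00272), where 4.45% of all genes were called and 3.36% were higher. Il18rap was called too, but it passed the filter only through the cells with a Nkg7 UMI, so nothing is read from that call. Maf in Cd8 cells was at -0.39 for the same split (SE 0.31, adjusted p = 0.657). The Cd8 cells without a Nkg7 UMI held few of these molecules, 4 to 13 UMIs of Il18r1 and 0 or 1 of Il18rap per library, and in knockdown library 1 their Il18r1 level was the higher one, at 34.2 against 31.4 CPM. In Cd8 cells with a Nkg7 UMI Maf was higher in the knockdown libraries by 1.66 (SE 0.13) and Rora by 0.75 (SE 0.15), close to the values over all Cd8 cells, and Il18rap (0.49) and Tmem176b (-0.66, adjusted p = 0.0496) made 4 of 6 called against 43% of all genes.

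Foxp3 cells were split by Klrg1, a receptor of effector-type regulatory T cells. Cells with a Klrg1 UMI took up 32.7 and 37.4% of the class in control against 46.0 and 39.6% in knockdown libraries (at most 26.0 against at least 29.2% after thinning). They held Maf at 969 and 942 CPM in the control and at 820 and 939 CPM in the knockdown libraries. Cells without one held 139 and 234 CPM in the control and 353 and 391 CPM in the knockdown libraries. In the former the nearest libraries of the groups lay close together, at 942 and 939 CPM, while knockdown library 1 was lower, and in the latter both knockdown libraries stood above both control libraries. In cells without a Klrg1 UMI Maf was higher by 0.97 in the knockdown libraries by edgeR (SE 0.18, adjusted p = 0.0044), the 1 of 6 genes called where 3.91% of all genes were and 2.24% were higher. DESeq2's Wald test did not make this call. In cells with a Klrg1 UMI Maf was at 0.02 (SE 0.11, adjusted p = 0.969). By edgeR none of 6 genes was called there, where 1.09% of all genes were, and DESeq2 also called none. By edgeR 1 had an unadjusted p under 0.05, Ccr6, from which no direction is read, since in this subset the control libraries alone met the filter as a group.

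The interaction was -0.95 for Maf (SE 0.19, adjusted p = 0.00317) and -0.98 for Rora (SE 0.27, adjusted p = 0.0486), 2 of 6 genes where 2.11% of all genes were called and 0.91% were lower. Maf was thus higher with knockdown in cells without a Klrg1 UMI and differed by 0.02 in those with one. Rora was called in neither subset, and its values lay in opposite directions. Without control library 1 neither call remained (Maf -0.57, adjusted p = 0.243, and Rora -1.08, adjusted p = 0.0716), and Rora lost its call also without control library 2 (-0.89, adjusted p = 0.215) or knockdown library 2 (-0.62, adjusted p = 0.627). Rora was read at 50.8 and 44.1 against 69.4 and 83.5 CPM in cells without and at 240 and 239 against 203 and 144 CPM in cells with a Klrg1 UMI.

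Of 6 genes tested 4 were called higher in Klrg1-bearing Foxp3 cells, where 22% of all genes were called and 11.1% were higher. Maf (1.50, SE 0.16, adjusted p = 3.3e-07) and Rora (1.50, SE 0.17, adjusted p = 5.58e-07) were raised alike. Il18r1 was higher by 0.74 (SE 0.17, adjusted p = 0.00281). Il18rap, the remaining one, had 4, 6, 4 and 0 UMIs in cells without Klrg1 against 24, 14, 12 and 9 and passed the filter only through the cells with it, so no test of it is given. Ccr6 was at 0.40 (adjusted p = 0.342) and Tmem176b at -0.49 (adjusted p = 0.345), neither of them called.

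Shares of cells with a UMI were compared after each cell had been thinned to 2000 UMIs. Il18r1 was seen in 4.79 and 4.68% of Cd4 cells of the control and 3.03 and 4.49% of those of the knockdown libraries, and in 9.21 and 11.8% against 12.1 and 17.4% of Foxp3 cells. Maf was seen in 7.83 and 7.94% against 14.6 and 12.6% of Cd4 cells, in 1.43 and 1.62% against 4.53 and 4.47% of Cd8 cells, and in 34.2 and 40.1% against 48.4 and 47.2% of Foxp3 cells. With 2 libraries per group an exact two-sided permutation test cannot go below p = 0.333, which Maf reached in each class. The reference was Cd8 cells with a Ccr7 UMI and no Nkg7 UMI, taken as cells that should lack type 17 transcripts. They had a Maf UMI in 0 of 107, 78, 18 and 30 cells, which allows shares of up to 2.80, 3.85, 16.7 and 10.0%. Il18r1 was seen in 1 of the 107 and none of the 78 reference cells of the control libraries after thinning, or 0.935% and at most 3.85%. Unthinned, Il18r1 was seen in 13.8 and 14.4% of control Cd4 cells and in 8.33 and 12.8% of the control reference cells. The margin of Il18r1 thus depended on the thinning, and the reference cells were not free of Il18r1. Unthinned, Maf was seen in 1.85 and 1.28% of the control reference cells, a mean of 1.57%. Its mean was 4.29% among the knockdown reference cells, of which there were only 18 and 33. Over all Cd8 cells the unthinned Maf share had a mean of 3.96% for control against 10.7% for knockdown tumors. Whether Maf rose more in all Cd8 cells than in the reference cells was not tested. These shares cover counting error only.

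Tmem176a was seen in 1.75 and 1.19% of control and 0.478 and 0.873% of knockdown Cd4 cells, and in 1.87% of the reference cells of control library 1 (2 of 107) and none of the others. Tmem176b was seen in 1.49 and 1.51% against 0.955 and 0.374%, and in 2.56% of the reference cells of control library 2 (2 of 78). The shares of Cd4 cells lay above the reference in some libraries and below it in others, and the reference rested on 2 cells for each gene, so whether Cd4 cells stood above background was not settled at this depth. Rora stood at 1.42 and 2.22% against 3.82 and 0.873% of Cd4 cells, with 0.935 and 1.28% in the reference cells of the control libraries, a narrow margin. In Foxp3 cells Rora was seen in 18.1 and 20.4% against 26.8 and 19.7%, well above it.

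**Figure D4:**
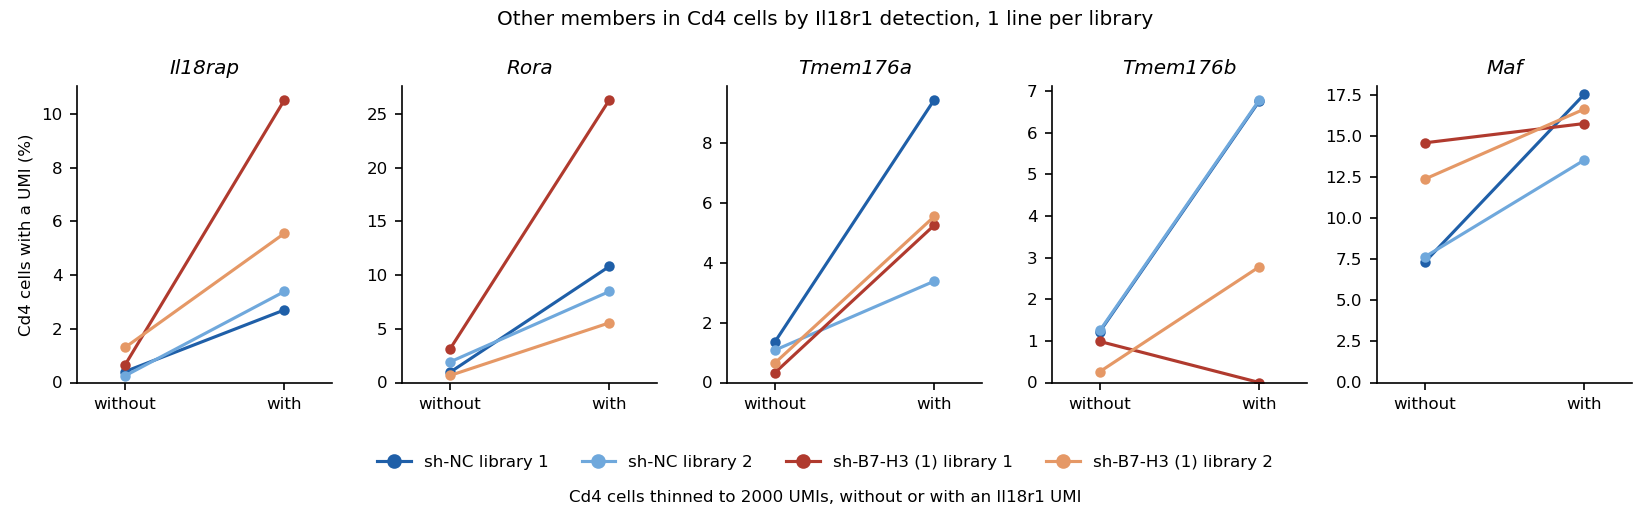
Share of Cd4 cells with a UMI of Il18rap, Rora, Tmem176a, Tmem176b or Maf (y axes, %, linear from 0) among cells without and with an Il18r1 UMI, after thinning to 2000 UMIs, with 1 line per library. For Il18rap, Rora, Tmem176a and Maf the share was higher with Il18r1 in all 4 libraries, and for Tmem176b in 3 of 4.

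Cd4 cells with an Il18r1 UMI were then compared with those without. After thinning there were 188 such cells, 74 and 59 from control and 19 and 36 from knockdown libraries. Among them 5.56 to 26.3% also had a Rora UMI, against 0.653 to 3.12% of the cells without Il18r1, and the share was higher in 4 of 4 libraries. Il18rap was seen in 2.70 to 10.5% against 0.250 to 1.31%, and Tmem176a in 3.39 to 9.46% against 0.328 to 1.36%, each in 4 of 4 libraries. The counts behind these shares were small, 20 cells for Rora, 8 for Il18rap and 12 for Tmem176a.

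Summed per library, Il18rap was at a mean of 41.0 CPM in the Il18r1-positive and 3.69 CPM in the other Cd4 cells, Tmem176a at 47.1 against 6.06 CPM, Tmem176b at 29.7 against 5.64 CPM and Rora at 78.2 against 10.3 CPM. Il18rap, Tmem176a and Rora were higher in 4 of 4 libraries and Tmem176b in 3 of 4. These 4 genes passed the filter on low counts only through the Il18r1-positive cells, where they were the higher, so their values are a description and no test of them is given. Maf, which passed it in both kinds of cells, differed by 0.20 (SE 0.24, edgeR adjusted p = 0.899), at 124 against 103 CPM.

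By the rule fixed for partners 28 genes qualified, where 2.72% of all 6869 genes were called and 0.873% were higher. The rule asks for a gene called higher, with a mean of at least 50 CPM and a higher level in all 4 libraries. Mitochondrial, ribosomal protein and T cell receptor genes were left out, and the rest were ranked by log2 difference. The top 10 were Penk, Tnfrsf4, Ahnak, Tnfsf8, Itgb1, Bhlhe40, Icos, Tbc1d4, Odc1 and Capg. Penk, which encodes the precursor of the enkephalin peptides, was at 238 CPM against 24.2 CPM (2.95, SE 0.29, adjusted p = 7.26e-22). Tnfrsf4, the costimulatory receptor OX40, was at 380 against 64.2 CPM (2.18, SE 0.19). The remaining 8 differed by 1.31 to 1.66 on the log2 scale, among them the costimulatory receptor Icos (1.40) and the integrin chain Itgb1 (1.49). Regulatory cells were left out of the Cd4 class only by their Foxp3 UMIs. Unthinned, other markers of a regulatory list were seen in 15.1 and 17.9% of control and 46.6 and 44.2% of knockdown Cd4 cells. The part of such cells in these partners was not tested.

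In Cd8 cells the shares were read in the same way, and the difference from Cd4 cells was not tested. Among 310 Cd8 cells with an Il18r1 UMI the share with Rora was higher in 1 of 4 libraries and that with Maf in none, while that with Il18rap was higher in 4 of 4 (0.990 to 9.43% against 0.787 to 1.11%). In Foxp3 cells Il18r1, Rora and Maf were found together. Among 191 Foxp3 cells with a Rora UMI 52.7 to 67.8% had a Maf UMI, against 30.1 to 43.4% of those without, and among 112 with an Il18r1 UMI 29.4 to 42.1% had Rora, against 16.7 to 24.6%, each in 4 of 4 libraries. Tmem176a and Tmem176b were often seen in the same cells: of 52 Cd4 cells with Tmem176a 21 also had Tmem176b, 0 to 53.3% per library against 0 to 0.96% of the cells without. The genes share exonic bases near their starts, whereas the library kit reads transcripts at the opposite end. The part of the shared bases in this was not tested. No test was made of these shares, which are descriptions.

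**Figure D5:**
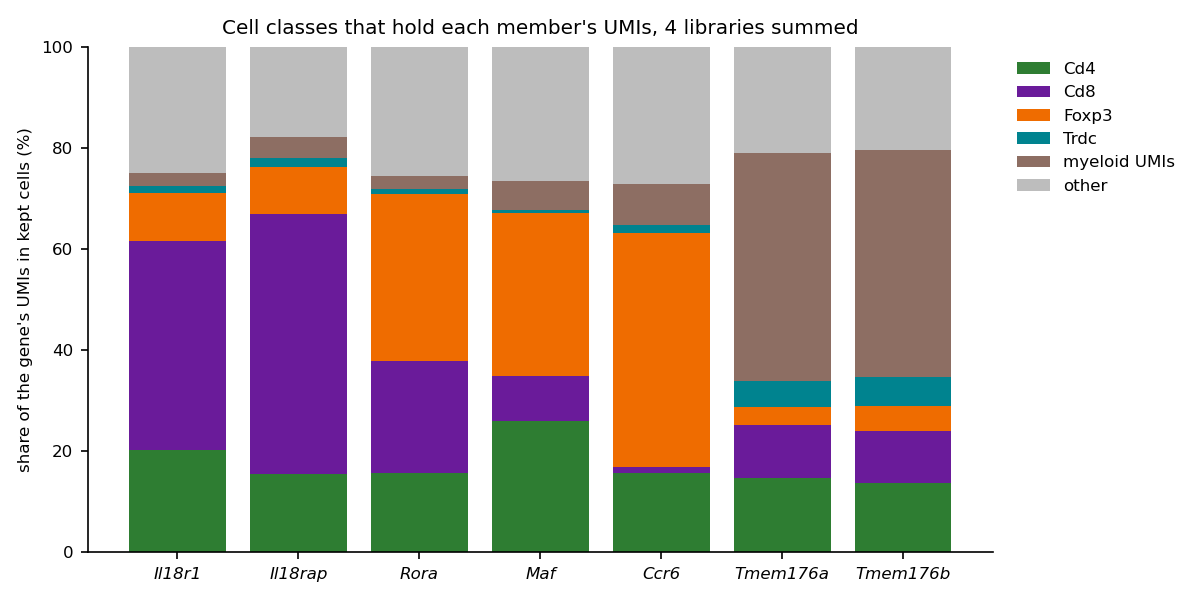
Share of the UMIs of each gene in kept cells (y axis, %) that lay in Cd4, Cd8, Foxp3 and Trdc cells, in cells with myeloid UMIs and in all other cells, over the 4 libraries summed. Tmem176a and Tmem176b had 45.1 and 44.9% of their UMIs in cells with myeloid UMIs, a sum over groups that differed (21.6 to 32.0% in control and 63.2 to 68.7% in knockdown libraries), against 2.5 to 8.1% for the other 5 genes.

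The 3 classes did not hold all UMIs of these genes. Cells with at least 2 UMIs of the defining myeloid markers Lyz2, Csf1r, C1qa, C1qb, C1qc and Adgre1 were 1.75 and 1.74% of kept cells for control against 6.79 and 4.96% for knockdown tumors, although the cells had been sorted for CD3. Of the Tmem176a UMIs of a library they held 21.6 and 27.1% in control against 68.6 and 68.7% in knockdown tumors, and of Tmem176b 32.0 and 26.0% against 63.2 and 68.2%. The shares of the groups lay far apart, so a value over all 4 libraries describes neither. Their levels were at 123 and 145 against 232 and 273 CPM for Tmem176a and 206 and 162 against 209 and 255 CPM for Tmem176b. Cd4 cells without such markers held 25.6 and 20.2% of the Tmem176a UMIs for control against 2.91 and 7.25% for knockdown tumors, and 19.0 and 20.4% against 4.30 and 7.41% of those of Tmem176b. The summed level of the 11 markers of the wider myeloid list in Cd4 cells was 328 and 247 CPM in the control and 287 and 280 CPM in the knockdown libraries, with all 11 detected. In Cd8 cells it was higher in the knockdown libraries, at 182 and 219 against 318 and 273 CPM. In Foxp3 cells the groups overlapped, at 1001 and 370 against 424 and 710 CPM. Without the cells holding defining myeloid UMIs, markers chosen after seeing the data, the same 5 genes were called in Cd4 cells. Without those holding at least 2 UMIs of the wider list 2 genes were called, Maf and Tmem176b, and Ccr6 could not be tested.

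Trdc cells, with a UMI of the delta chain constant region and none of Cd4, Cd8a, Cd8b1 or Foxp3, numbered 49 and 51 for control against 24 and 23 for knockdown tumors. Tmem176a was at 60.2, 111 and 82.4 CPM in 3 of them and at 0 in knockdown library 2, and Tmem176b at 68.8, 120, 137 and 0 CPM. They held 5.21 and 11.7% against 3.88 and 0% of the Tmem176a UMIs, and 5.30 and 10.8% against 6.62 and 0% of those of Tmem176b. Of the classes so defined, Cd8 cells held the largest share of Il18r1 UMIs (41.5%) and of Il18rap UMIs (51.5%). With cells holding at least 2 UMIs of the wider myeloid list set apart, those cells held the largest share, 33.8% of Il18r1 against 29.2% in Cd8 cells and 45.7% of Il18rap against 29.9%. These are sums over all libraries, although such cells were 23.7 and 24.2% of kept cells for control against 36.8 and 36.4% for knockdown tumors. Foxp3 cells held 33.4 and 41.2% of Maf UMIs for control against 27.8 and 26.0% for knockdown tumors, while the cells of no class held 25.1 and 20.2% against 30.2 and 30.4%. For Rora it was 35.1 and 36.0% against 31.6 and 27.1% in Foxp3 cells, and 23.0 and 18.8% against 31.6 and 32.9% in the cells of no class. For Ccr6 it was 46.6 and 52.1% against 35.3 and 46.9% in Foxp3 cells, and 21.4 and 17.9% against 45.6 and 40.6% in the cells of no class. These shares follow the number of cells of a class as well as their level.

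Droplets of 10 to 100 RNA UMIs, which hold free RNA and no cell, gave Il18r1 at 61.9, 61.9, 58.7 and 37.3 CPM, above its level in Cd4 and Cd8 cells of the same libraries, and Il18rap at 18.5, 11.3, 14.3 and 9.6 CPM, likewise above both. They were also above the level in Foxp3 cells for Il18r1 in both control libraries and for Il18rap in 3 of 4 libraries. Tmem176a in these droplets was at 9.60, 14.6, 15.8 and 13.9 CPM and Tmem176b at 8.34, 12.5, 20.8 and 19.1 CPM, above their levels in Cd4 cells in all libraries but control library 1. Maf in these droplets was at 39.7 and 42.6 in the control and 74.5 and 62.5 CPM in the knockdown libraries, so it moved in the same direction as in the cells. Its level in Cd8 cells lay below that of these droplets in each library, and those in Cd4 and Foxp3 cells above it. Rora reached 18.6 CPM there and was above its level in Cd4 cells and far below that in Foxp3 cells, and in Cd8 cells too its level lay below that of the droplets of the same library. What share of a cell's UMIs came from free RNA was not estimated, and the part of free RNA in these results was not tested. Markers of other lymphocytes also moved with the knockdown in Cd4 cells: the gamma-delta list summed to 30.9 and 29.0 against 142 and 129 CPM, and the NK list to 19.1 and 21.3 against 134 and 120 CPM, with 2 of its 5 markers detected. Trdc, the defining gene of the gamma-delta list, did not move with its sum in Cd4 cells, at 8.12 and 5.61 against 6.87 and 5.05 CPM (-0.34, adjusted p = 0.317). In Cd8 cells Trdc did rise, from 5.15 and 8.33 to 20.3 and 18.7 CPM (1.45, SE 0.15, adjusted p = 1.4e-09). The regulatory list summed to 56.1 and 67.1 against 214 and 212 CPM in Cd4 cells, with 3 of its 4 markers detected. In Cd8 cells the regulatory list summed to 23.4 and 29.3 against 108 and 108 CPM, the gamma-delta list to 36.7 and 46.0 against 164 and 161 CPM, and the NK list to 33.6 and 35.6 against 133 and 116 CPM. In Foxp3 cells the NK list summed to 5.18 and 7.77 against 18.2 and 18.2 CPM, and Nkg7 was at 98.3 CPM in control library 1 and close to that in control library 2, against 513 and 430 CPM for knockdown tumors. The type 2 innate lymphoid list summed to 153 and 183 against 214 and 215 CPM there, and the regulatory list to 1759 and 1887 against 2145 and 2091 CPM. The gamma-delta and myeloid lists overlapped between the groups in Foxp3 cells. The tumor or stroma list was lower in the knockdown libraries, at 63.9 and 63.4 against 41.9 and 44.5 CPM in Cd4 and 39.2 and 40.6 against 27.9 and 26.1 CPM in Cd8 cells. The part of these markers in the results of the 3 classes, that of Maf included, was not tested.

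Other genes of the pathways were read by lists. Of 20 type 17 genes 14 were tested in Cd4 cells, of which 5 were higher and 4 lower in the knockdown libraries (median -0.10), again against 40% of all genes. Ahr, a ligand-sensing transcription factor, went from 4.60 and 4.57 CPM to 19.9 and 19.1 CPM (1.99, SE 0.17, adjusted p = 2.67e-08). Il6ra, the IL-6 receptor chain, went from 78.9 and 77.3 to 33.5 and 32.5 CPM (-1.34, SE 0.08, adjusted p = 1.45e-10), and Irf4 was higher by 1.22 (SE 0.19). In Cd8 cells 7 of 13 were higher and 3 lower (median 0.12), against 44.1% of all genes called. Among those with a mean of at least 5 CPM the leading ones were Socs3 (-1.29), Il6ra (-1.25) and Batf (0.84). In Foxp3 cells 1 of 14 was called, against 5.2% of all genes, namely Batf (0.43, SE 0.12, adjusted p = 0.0321).

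Of 16 genes of the IL-1 and IL-18 receptor family and its signal, 13 were tested in Cd4 cells, with 3 higher and 1 lower (median 0.23), against 40% of all genes called. Tbx21, the type 1 transcription factor T-bet, was at 1.39 and 1.52 CPM in the control and 9.16 and 8.0 CPM in the knockdown libraries (2.45, SE 0.28, adjusted p = 1.41e-06). Irak2 was higher by 1.34 (SE 0.20) and Stat4, which signals below IL-12, by 0.65 (SE 0.09). In Cd8 cells 3 of 12 were higher, Tbx21 (1.04), Irak2 (0.92) and Il1rap (0.50), and 3 lower (median -0.06), against 44.1% of all genes, and in Foxp3 cells edgeR called 0 of 9 (median 0.02), against 5.2%.

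Of 16 ROR, MAF and clock genes 13 were tested in Cd4 cells, with 3 higher and 3 lower (median 0.07), again beside 40% of all genes. Bhlhe40, a clock-linked repressor that also stood among the 10 leading partners of Il18r1, went from 16.9 and 23.0 to 75.1 and 68.6 CPM (1.76, SE 0.11, adjusted p = 3.72e-10). Cry1 was at -0.79 and Mafg at 0.48. In Cd8 cells 4 of 12 were higher and 1 lower (median 0.19), where 44.1% of all genes were called, with Bhlhe40 at 2.24, Icos at 0.61 and Arntl at 0.53. In Foxp3 cells 2 of 10 were higher (median 0.25), where 5.2% of all genes were called, Il10 (0.85, SE 0.26, adjusted p = 0.0485), at 33.4 and 16.5 against 50.5 and 41.0 CPM, and Icos (0.44, SE 0.09). Of 13 innate-like and gamma-delta genes 5 were tested in Cd4 cells, with 3 higher and 1 lower against 40% of all genes, among them Tcrg-C1 (3.39), Tcrg-C2 (2.18) and Il7r (-1.48). In Cd8 cells 4 of 7 were higher and 1 lower (44.1% of all genes), and in Foxp3 cells edgeR called 0 of 2 (5.2%).

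Over the 24 sums of the 6 split classes and 4 libraries, the genes most like each member by Pearson's r of log levels, among 4665 with a mean of at least 20 CPM, were as follows. Rora was followed most closely by Ubl3 (r = 0.98), Plp2 (0.97) and Tspan13 (0.97), and Maf by A430093F15Rik, Pkp3 and Gnai2 (each 0.97). Ccr6 was followed by Pim1 (0.96), Ncoa3 (0.95) and Foxp3 (0.94), of which the last helped to define the classes. Il18r1 was followed by Lmnb1 (0.94), Vim (0.93) and Cklf (0.93), and Il18rap by Ube2f, Rac2 and Myl12a (each 0.85). Tmem176b (Mmgt2, 0.77) and Tmem176a (Tnpo3, 0.73) had no close match. The sums share libraries and classes, so these values describe the likeness and carry no test.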

How the data were processed

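RNA and antibody tags were measured in 4 libraries, 2 per group. The deposited matrices hold UMI counts per barcode, which the authors made with Cell Ranger (6.1.1 in the file headers) and the STAR aligner on mm10. Seurat 4.0.0 is named in the submitters' notes. Whether counting used strand is not given in the sources used here.

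Cells with 200 to 3000 genes and at most 5% mitochondrial UMIs were kept, and doublets were removed by a score against simulated doublets with an Otsu threshold (scanpy 1.11.5, Python 3.11.15). UMIs were summed per library and class, scaled by TMM, filtered with filterByExpr and tested over all genes with edgeR 4.0.16 (glmQLFit, glmQLFTest, R 4.3.3), with Benjamini-Hochberg adjustment and a call at an adjusted p under 0.05. Standard errors were taken from the log2 fold change and its F statistic. Of these steps, only the fits of knockdown against control in the 3 classes were tried on simulated counts. Fewer genes were changed there than were called in Cd4 and Cd8 cells here. DESeq2 1.42.0, each library left out, a replicate block, other filters, stricter and tag-based calls were tried as alternatives. Shares used cells thinned to 2000 UMIs, with a floor of 3 counts, and cover counting error only. Depth was 79224898 to 132820909 RNA UMIs per library.

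The 9 genes and the lists were chosen with earlier results of these data known. All 9 were named, with at most 3 called genes per list and class (mean of at least 5 CPM), 10 partners of Il18r1 and 3 like genes per member. The myeloid class used 6 defining markers, chosen after seeing the data, because the wider list took 23.7 to 36.8% of kept cells.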

Additional observations from a re-analysis of the deposited data

Results flagged for a closer look

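In 5 cases the knockdown effect of a gene differed between 2 kinds of cells by the interaction term of edgeR's fit over all genes. Between Cd8 and Cd4 cells Maf differed by 0.89 on the log2 scale (adjusted p = 6.11e-05) and Rora by 1.06 (adjusted p = 0.00289), with Maf higher in both and Rora called in Cd8 cells alone, at 0.77 against -0.30. Between Foxp3 and Cd4 cells Il18r1 differed by 0.70 (adjusted p = 0.0181), with values of 0.45 and -0.23, neither called on its own. Between Foxp3 cells with and without a Klrg1 UMI Maf differed by -0.95 (adjusted p = 0.00317) and Rora by -0.98 (adjusted p = 0.0486), with Maf higher in cells without one and Rora called in neither. All 5 calls were lost when at least 1 of the 4 libraries was left out. With 2 libraries per group no single library could be tested against the others of its group.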

How the results depend on the processing

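Over the 15 alternatives, 251 of the log2 values of the followed genes kept their direction and their side of the threshold, 25 lost a call, 11 gained one and 11 changed direction. Maf in Cd4 and Cd8 cells and Rora in Cd8 cells kept their calls under all of these, though Maf in Cd4 cells and Rora in Cd8 cells lay under a log2 fold change of 1. None of the alternatives took free RNA into account. At this depth Il17a, Il23r and, in Cd8 cells, Ccr6 stayed under the filter, and no value could be had for Ccr6 in Cd4 cells or Tmem176a in Foxp3 cells without the cells holding UMIs of the myeloid list. The causes of the changes below were not tested.

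In Cd4 cells 5 genes were called, but 2 with DESeq2's Wald test (Maf and Tmem176b), 2 without doublet removal, 2 at a mitochondrial limit of 10% (Il18rap and Maf in both), 2 without cells holding UMIs of the myeloid list, 3 at a log2 fold change of at least 1, 6 with a stricter RNA call (Rora was added) and 3 to 5 with a library left out. In Cd8 cells 3 were called, but 5 without doublet removal, 5 without the upper limit of genes, 5 with a stricter RNA call, 1 at a log2 fold change of at least 1 and 2 to 4 with a library left out. In Foxp3 cells 1 was called, but 0 without the filter on low counts, 2 without doublet removal, 2 without the upper limit of genes, 2 at a mitochondrial limit of 10%, 0 without cells holding UMIs of the myeloid list and 0 at a log2 fold change of at least 1. In each of the 3 cases with 2 calls Il18r1 joined Maf.

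Of the genes that changed direction in Cd8 cells, Il18r1 stood at -0.076 without cells holding UMIs of the myeloid list, Tmem176a at 0.64 without doublet removal and 0.81 with lineage by tags, and Tmem176b at 0.38 and 0.10. Both of these values of Tmem176a were called, whereas 3 other alternatives called it lower. In Foxp3 cells Il18rap ranged from -0.48 to 0.48 and Tmem176b from -0.31 to 0.44 with a library left out, and Tmem176b stood at -0.18 at a mitochondrial limit of 10% and at -0.40 without cells holding UMIs of the myeloid list.

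Between Cd8 and Cd4 cells 5 genes were called, 3 with a stricter RNA call and 3 to 5 with a library left out, and between Foxp3 and Cd4 cells 5 to 6 with a library left out. The effect differed between Cd8 and Cd4 cells for 2 genes, for 1 at a log2 difference of at least 1 and for 0 to 2 with a library left out. Between Foxp3 and Cd4 cells it differed for 1 gene, for 0 with the Wald test, 3 without the filter on low counts, 2 without the upper limit of genes, 4 with a stricter RNA call, 0 at a log2 difference of at least 1 and 0 to 2 with a library left out.

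The alternatives for the split classes were chosen after seeing the data. In Cd4 cells with a Nkg7 UMI 2 genes were called, 1 with the Wald test and 1 to 2 with a library left out, and in those without one 0 to 1 with a library left out (Tmem176b without knockdown library 2). In Foxp3 cells without a Klrg1 UMI 1 was called, 0 with the Wald test and 1 to 2 with a library left out. For the Klrg1 interaction it was 2 genes, 1 with the Wald test, which gave Rora no adjusted p, and 0 to 2 with a library left out. Among Il18r1-positive Cd4 cells 4 were called and 2 to 4 with a library left out, all of them genes that passed the filter only through those cells, and the Wald test gave these genes no adjusted p.

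Libraries of the groups share replicate numbers, but same-numbered libraries did not deviate together (correlations of -0.03 in Cd4, 0.05 in Cd8 and 0.00 in Foxp3 cells), so the numbers were not taken as pairs. With a replicate block 5, 3 and 1 genes were called in Cd4, Cd8 and Foxp3 cells, 2 in Foxp3 cells without a Klrg1 UMI (Il18r1 and Maf), and 243 instead of 440 of all genes in Foxp3 cells.

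Over all genes the Wald test called 2307 against 4363 in Cd4, 2989 against 5094 in Cd8 and 195 against 440 in Foxp3 cells, and 125 against 406 and 459 against 752 for the interactions with Cd8 and Foxp3 cells. In Foxp3 cells it was 137 without the filter on low counts, 84 without cells holding UMIs of the myeloid list, 258 without control library 1 and 279 with the stricter or the tag-based call, which keep the same Foxp3 cells. Without cells holding UMIs of the myeloid list 2006 against 3343 genes differed between Foxp3 and Cd4 cells, and 234 and 262 had an interaction with Cd8 and Foxp3 cells. With a library left out Cd8 and Cd4 cells differed in as few as 1221 against 2060 genes.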

Other observations

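In Cd4 cells UMIs of Rora and Maf lay partly in the same cells. Of 81 thinned Cd4 cells with a Rora UMI 33 also had a Maf UMI, 27.3 to 50% per library against 6.98 to 13.4% of the cells without Rora, and the share was higher in 4 of 4 libraries. Among the 188 cells with an Il18r1 UMI the share with Maf was 13.6 to 17.6% against 7.34 to 14.6%, also higher in 4 of 4, although the summed level did not pass the test. In Foxp3 cells 64 of the 112 with an Il18r1 UMI had Maf, 52.6 to 64.3% against 31.2 to 47.8%. No test was made of these shares.

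Among all called cells, before any filter, Il17a had 125 UMIs, 120 of them in control library 2. Of these, 111 lay in a single barcode with 3823 detected genes, over the limit of 3000, which held 2 Cd4 UMIs and 1 Cd8 UMI. Il23r had 15, 26, 18 and 23 UMIs among all called cells and 9, 2, 5 and 1 among kept cells, in the order control 1, control 2, knockdown 1 and knockdown 2. In the same order Maf had 5235, 5831, 6852 and 8625 against 2235, 2223, 1914 and 2391. Rora had 1717, 1774, 1767 and 2115 against 612, 600, 405 and 425, and Ccr6 267, 320, 327 and 295 against 103, 117, 68 and 32.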
